A study of Homo sapiens with 24 samples.

Results

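The 10 genes described here, grouped as immediate early or YAP response genes, are CCN1, CCN2, KLF2, FOSL1, DUSP6, EGR1, JUN, JUND, ATF3 and IER3. All were measured in DU145 cells, and JUND among them is constitutively expressed. The 10 genes were taken by symbol, with every probe that the platform annotation gives to them. This made 10 of 20046 named genes and 14 of 47323 probes. The genes, and the pathway lists used below, were chosen with earlier results of these data known. Their counts beside the shares of all genes are therefore descriptions and no test of the set. DU145 is an established human prostate cancer cell line, grown in medium with 10% FBS. The first experiment measured total RNA of cells given the non-targeting control mimic NC1, the control mimic NC2 or a mimic of miR-638, with 4 arrays in each group. In the second, cells were given a biotinylated form of NC1, NC2, miR-638 or miR-17, and the RNA recovered with it was measured on 3 arrays in each group. The control groups carry transfected RNA too, and no untransfected cells are among the groups. In such a pulldown the biotin on the microRNA is used to recover the RNAs bound to it, so a level there is an amount recovered and not the amount in the cell. Whether replicates came from separate cultures is not labelled, and the p-values therefore measure only the spread between these arrays, which may be technical.

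Immediate early genes are switched on within minutes of a stimulus without new protein synthesis, and their messenger RNAs are short lived. JUN, JUND, FOSL1 and ATF3 are transcription factors of the AP-1 and ATF group, which bind DNA as pairs. EGR1 and KLF2 are zinc finger transcription factors, and EGR1 is a classic target of the ERK pathway and of the serum response factor SRF. DUSP6 is a phosphatase that removes the activating phosphates of ERK and is itself raised by ERK signalling. IER3 is an early stress and growth factor response gene linked to cell survival. CCN1 and CCN2 are secreted matrix proteins and widely used targets of YAP, the coactivator that the Hippo pathway restrains and that acts through the TEAD factors.

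The microRNAs used as baits and mimics are shown because a microRNA pairs with transcripts mainly through its seed, given in capitals (bases 2 to 8). The sequences are those of RefSeq, 5′ to 3′, with loci on GRCh38.p14 at chr19:10718419-10718443 (plus strand) for miR-638 and chr13:91350618-91350640 (plus strand) for miR-17-5p. The labels name miR-17 without an arm, and the 5p arm is printed here as the guide arm usually meant. The seeds differ, and miR-638 is richer in G and C (80.0% against 47.8%).
hsa-miR-638: aGGGAUCGcgggcggguggcggccu
hsa-miR-17-5p: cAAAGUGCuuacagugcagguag

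Promoters of RefSeq (GRCh38.p14, 250 bases before to 50 after the start, 300 in all) were matched for 7 of the 10 genes: CCN2, KLF2, DUSP6, EGR1, JUN, JUND and ATF3. Each was searched on both strands for GGAATG (TEAD), TGANTCA (AP-1), TGACGTCA (the CRE bound by ATF and CREB factors), its part TGACG, and the CArG box bound by SRF. CCN2 held 3 copies of GGAATG, and none of the other windows of these genes held it. At least 1 copy is in 14% of 35116 promoters. EGR1 held 2 CArG boxes and JUND held 1 TGACGTCA, and at least 1 copy of these is in 1.29% and 1.85% of promoters. TGACG was found 2 times in EGR1, 1 time in JUN and 3 times in JUND, where its copies include both ends of TGACGTCA, and 24.6% of promoters hold at least 1 copy. TGANTCA, held at least 1 time by 7.71% of promoters, was in 0 of the windows. A match describes these letters only and is not a measured binding site. The 3 windows with a TEAD, SRF or CRE word are printed with those words in capitals, 5′ to 3′ on the strand of the gene. They lie at chr6:131951323-131951622 (minus strand), chr5:138465229-138465528 (plus strand) and chr19:18281573-18281872 (minus strand).
CCN2: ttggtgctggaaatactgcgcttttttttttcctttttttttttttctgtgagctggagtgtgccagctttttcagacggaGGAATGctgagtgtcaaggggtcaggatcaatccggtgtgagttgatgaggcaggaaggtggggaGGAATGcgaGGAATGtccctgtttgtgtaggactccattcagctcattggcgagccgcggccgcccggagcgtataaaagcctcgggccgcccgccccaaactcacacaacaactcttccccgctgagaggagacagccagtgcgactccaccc
EGR1: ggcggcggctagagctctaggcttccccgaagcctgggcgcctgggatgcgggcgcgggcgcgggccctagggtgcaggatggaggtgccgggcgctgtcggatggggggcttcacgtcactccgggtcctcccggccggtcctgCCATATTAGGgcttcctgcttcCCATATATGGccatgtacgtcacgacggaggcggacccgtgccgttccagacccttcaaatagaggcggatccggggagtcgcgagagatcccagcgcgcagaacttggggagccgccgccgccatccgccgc
JUND: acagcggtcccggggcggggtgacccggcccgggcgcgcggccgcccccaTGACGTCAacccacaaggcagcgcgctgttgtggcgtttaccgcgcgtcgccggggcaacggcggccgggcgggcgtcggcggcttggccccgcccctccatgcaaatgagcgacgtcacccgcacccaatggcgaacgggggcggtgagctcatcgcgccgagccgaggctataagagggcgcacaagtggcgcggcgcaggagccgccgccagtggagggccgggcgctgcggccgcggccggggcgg

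On GRCh38.p14 the genes lie at chr1:58780791-58784047 (JUN), chr1:85580761-85583950 (CCN1), chr1:212565407-212620777 (ATF3), chr5:138465479-138469303 (EGR1), chr6:30743199-30744547 (IER3) and chr6:131948176-131951372 (CCN2). The others lie at chr11:65892049-65900545 (FOSL1), chr12:89347235-89352501 (DUSP6), chr19:16324826-16328685 (KLF2) and chr19:18279694-18281622 (JUND).

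The arrays had mean signals of 300.0 to 463 (mimics) and 428 to 629 (pulldowns, with 1 NC2 array the brightest), and 43.6% to 47.8% of probes were detected. Of 6 epithelial markers, KRT8, KRT19, KRT7, EPCAM and CDH1 were detected on all 24 arrays and KRT18 on 16. The luminal prostate markers KLK3, KLK2 and TMPRSS2 were detected on 0 arrays, as were COL3A1, LUM, CD3E and CDH5 among the markers of fibroblasts, blood and endothelium. COL1A1, COL1A2 and CD14 were detected on 22, 23 and 24 arrays. All levels below are log2 of the background-corrected, quantile-normalized signal, and the experiments were normalized apart. Levels of different probes are not set against each other.

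Each of the 10 genes was detected on all 24 arrays by the probe that stood for it, and all 10 passed the detection filter in both experiments. Of the other probes, the second of CCN2 was detected on every array. The second of DUSP6 was detected on 1 of 12 mimic arrays and on all 12 pulldown arrays. The other 2 probes of ATF3 were detected on 0 arrays and give no level.

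**Figure D1:**
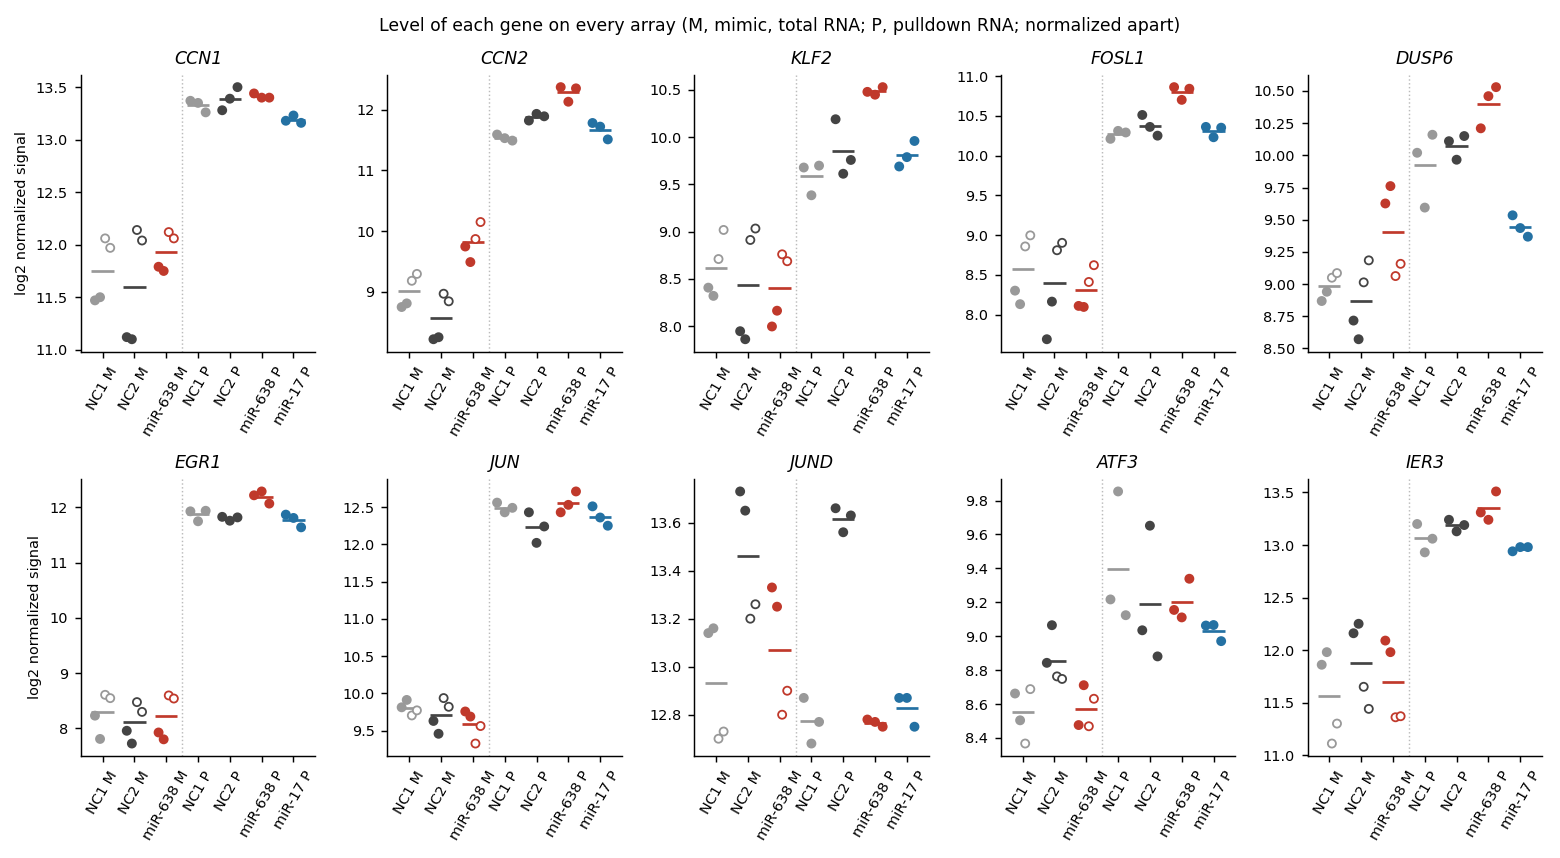
Level of each gene on every array, as log2 normalized signal, by group (M, mimic, total RNA; P, pulldown RNA). Points are arrays (open points, mimic replicates 3 and 4), bars are group means, each panel has its own axis, and the experiments were normalized apart. Higher in the miR-638 mimic than on every control mimic array is CCN2 alone, and 6 genes lie above every control array in the miR-638 pulldown.

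The miR-638 mimic was compared with both control mimics to ask which of these transcripts changed when miR-638 was raised. In the fit without replicate number as a block, CCN2 rose by 1.02 on the log2 scale (2.03-fold, SE 0.17, n = 4 against 8). The other 9 genes did not pass in that fit, and the fit with the block is given below. Without the block the share called over all genes was 3.34% in either direction and 2% higher, against 1 of these 10 genes. The median difference of the 10 genes was -0.0712, and that of all genes was -0.00474. In these bulk samples a change in the number of cells that hold a transcript and a change in the RNA per cell cannot be told apart.

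CCN2 stood at 8.75, 8.81, 9.18 and 9.30 on the NC1 mimic arrays, at 8.22, 8.25, 8.97 and 8.85 with NC2 and at 9.75, 9.49, 9.87 and 10.15 with the miR-638 mimic. Every miR-638 array lay above every control array, as for 1.05% of all genes, and NC2 lay lowest on average. The increase had an adjusted p of 0.00719 (limma, Benjamini-Hochberg over 12646 genes), and of 6.15e-09 with replicate number as a block. Against NC1 alone the difference in CCN2 was 0.80 with an adjusted p of 0.0567, and against NC2 alone it was 1.24 (adjusted p = 0.00294). The second probe of CCN2 stood at 7.35 to 7.56 with NC1, at 6.63 to 7.31 with NC2 and at 8.04 to 8.64 with miR-638. It differed by 1.12 (SE 0.14, adjusted p = 0.00138 over all probes), again with no overlap.

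CCN1, the other YAP target of the CCN family among the 10, stood at 11.47, 11.50, 12.06 and 11.97 with NC1, at 11.12, 11.10, 12.14 and 12.04 with NC2 and at 11.79, 11.75, 12.12 and 12.06 with the miR-638 mimic. The groups overlapped, and the spread within each lay between replicates 1 and 2 and replicates 3 and 4. Its difference was 0.26 (SE 0.21, adjusted p = 0.677), and it passed with replicate number as a block (adjusted p = 0.0275).

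DUSP6, the ERK phosphatase, stood at 8.87, 8.94, 9.05 and 9.09 with NC1, at 8.72, 8.57, 9.01 and 9.18 with NC2 and at 9.63, 9.76, 9.06 and 9.16 with the miR-638 mimic. Replicates 1 and 2 of miR-638 lay above every control array, and replicates 3 and 4 lay among them. The difference over all arrays was 0.47 (SE 0.15, adjusted p = 0.118), with an adjusted p of 0.00748 in the fit with replicate number as a block. Its dim second probe was detected on 1 miR-638 array only, replicate 2.

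Mimic arrays of replicates 1 and 2 moved together in all groups, and so did those of replicates 3 and 4. The fit with replicate number as a block takes this shift out. It called 3 of the 10 genes, CCN1, CCN2 and DUSP6, all higher, against a background of 19.2% in either direction and 10.1% higher.

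The transcription factors and IER3 did not pass in either fit. The differences were 0.0099 for EGR1, -0.12 for KLF2, -0.17 for FOSL1, -0.17 for JUN, -0.13 for JUND, -0.13 for ATF3 and -0.019 for IER3. Without the block the adjusted p ran from 0.505 (JUN) to 0.99 (EGR1), and the standard errors from 0.09 (ATF3) to 0.25 (KLF2). With the block the adjusted p ran from 0.056 (JUND) to 0.946 (EGR1).

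**Figure D2:**
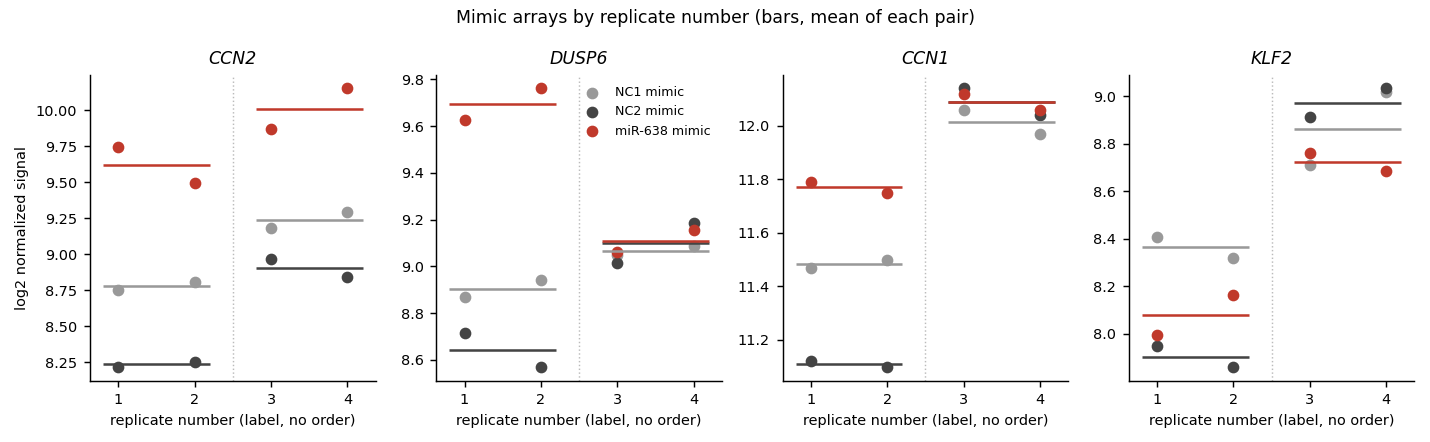
Levels of CCN2, DUSP6, CCN1 and KLF2 on the 12 mimic arrays (log2 normalized signal) by replicate number, which is a label with no order. Points are arrays and bars are the mean of each group within replicates 1 and 2 or 3 and 4. The miR-638 arrays of DUSP6 lie at 9.63 and 9.76 in replicates 1 and 2 and at 9.06 and 9.16 in 3 and 4, while those of CCN2 lie above the controls in both pairs.

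The mimic arrays differed between replicates 1 and 2 and replicates 3 and 4 in most of these genes. Averaged over the 3 groups, replicates 3 and 4 were higher by 0.74 for KLF2, 0.68 for FOSL1, 0.61 for CCN1, 0.60 for EGR1 and 0.51 for CCN2. IER3 and JUND were lower there, by -0.68 and -0.45. The shift was 0.011 for DUSP6, -0.023 for JUN and -0.099 for ATF3, and the median size of the shift over all genes was 0.208. For KLF2, FOSL1, CCN1 and EGR1 every array of replicates 3 and 4 lay above every array of 1 and 2, and for IER3 every one lay below. Of all genes 11.1% were without overlap and higher in replicates 3 and 4, and 10.4% without overlap and lower. The labels do not say what the pairs are. These shifts are given as a description with no test.

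Within the pairs the effect of the miR-638 mimic on DUSP6 was 0.92 in replicates 1 and 2 and 0.027 in replicates 3 and 4. The difference between these effects was -0.89 (SE 0.12, limma adjusted p = 1.18e-04 over 12646 genes, of which 64, or 0.506%, passed). For CCN1 the effects were 0.47 and 0.038, a difference of -0.44 (SE 0.09, adjusted p = 0.0288), which had an adjusted p of 0.0558 with median scaling and of 0.0791 without the detection filter. The DUSP6 difference had an adjusted p of 0.0969 in the authors' own values. CCN2 was higher by 1.11 and 0.93 in the pairs, and the difference of -0.18 did not pass (adjusted p = 0.723). FOSL1 and JUN stood at 0.031 and 0.019 in replicates 1 and 2 and at -0.38 and -0.36 in 3 and 4. The differences between those effects did not pass (adjusted p = 0.346 and 0.183), although each of these genes passed within replicates 3 and 4 (adjusted p = 0.0163 for FOSL1 and 0.0108 for JUN). With CCN2 they made 3 of the 10 genes there, where 6.68% of all genes passed, and 3 of the 10 passed within replicates 1 and 2, where 17.9% did.

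The control mimics were compared with each other to measure how far 2 non-targeting RNAs differ in these genes. By limma 0 of the 10 genes passed, where 10.1% of all genes did, and 3 of the 10 had an unadjusted p under 0.05. JUND, the constitutively expressed JUN relative, came nearest. It stood at 13.14, 13.16, 12.70 and 12.73 with NC1 and at 13.73, 13.65, 13.20 and 13.26 with NC2. The NC2 arrays lay above every NC1 array, as for 8.42% of all genes, and the difference was 0.53 (SE 0.16, adjusted p = 0.0612). Leaving out NC2 mimic replicate 3 made it 0.62 (adjusted p = 0.0478).

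With replicate number as a block, 4 of the 10 genes passed between the control mimics, against a background of 32.9%. JUND was higher with NC2 (adjusted p = 1.27e-07), as were IER3 by 0.31 (adjusted p = 9.26e-04) and ATF3 by 0.30 (adjusted p = 0.0091), and CCN2 was lower by -0.44 (adjusted p = 4.02e-04). JUND, IER3 and CCN2 also passed within each pair of replicates, the 3 of the 10 that passed within 3 and 4, where 16.9% of all genes did. ATF3, a stress-induced factor, stood at 8.37 to 8.69 with NC1 and at 8.75 to 9.06 with NC2, without overlap. The miR-638 mimic stood between the controls on average for JUND (12.80 to 13.33) and beside NC1 for ATF3 (8.47 to 8.71). Within replicates 1 and 2, 7 of the 10 genes passed, where 28.3% of all genes did. CCN1, KLF2 and JUN were among them, with NC2 lower by -0.38, -0.46 and -0.32, and differed with the opposite sign within 3 and 4, without passing (0.08, 0.11 and 0.14).

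The pulldown with miR-638 was compared with both control pulldowns to ask which of these transcripts were recovered with that microRNA beyond the controls. Recovered at a higher level were the YAP target CCN2, the zinc finger factors KLF2 and EGR1, the AP-1 factor FOSL1 and the phosphatase DUSP6. JUND was lower than the mean of both controls, but did not pass against NC1 alone. That made 5 of 10 higher and 1 lower, where 11.1% of 13101 genes passed, 6.55% higher and 4.6% lower. Since the genes were chosen with earlier results of these data known, these shares describe the set and do not test it. The median difference of the 10 genes was 0.292 against -0.00641 over all genes. On all 3 miR-638 arrays 6 of the 10 genes (the 5 and IER3) lay above every control array, as did 8.15% of all genes.

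**Figure D3:**
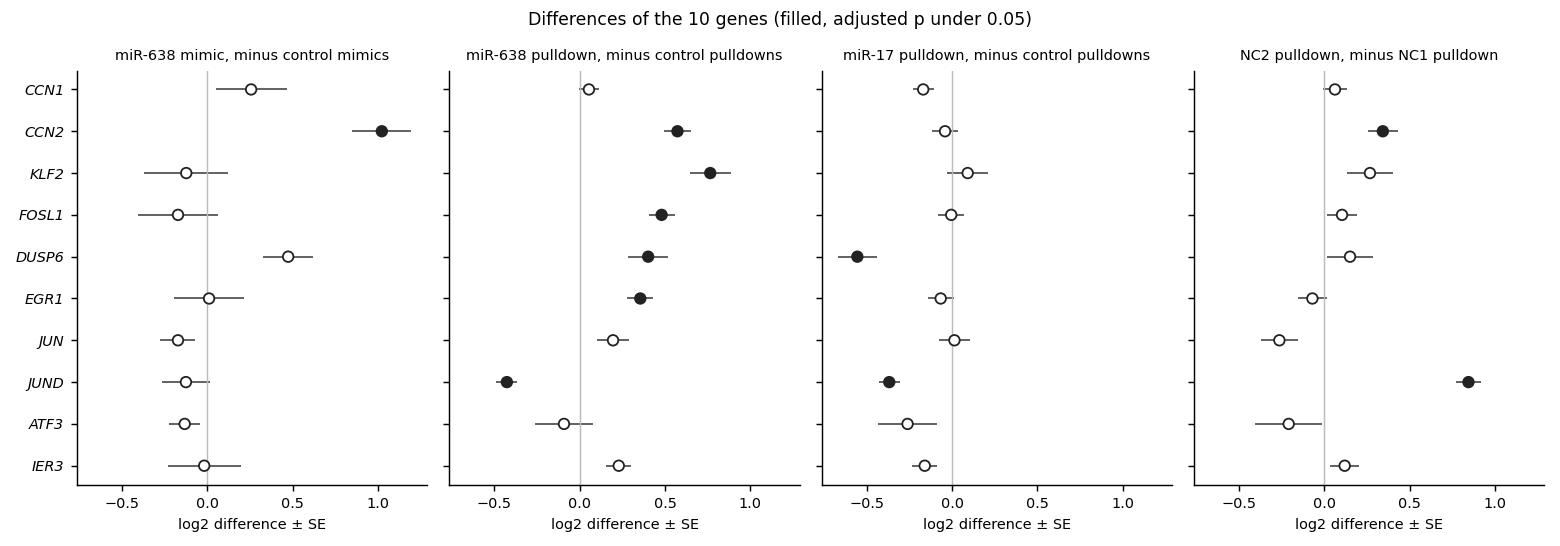
Difference of each of the 10 genes in 4 comparisons (log2, ± SE of the limma fit without replicate number as a block), with filled points past an adjusted p of 0.05. The miR-638 pulldown has 5 filled points above 0 and JUND below, the miR-17 pulldown has DUSP6 and JUND below 0, and the control pulldowns differ most in JUND (0.84). The panels with both control pulldowns share those 6 arrays. Against NC1 alone JUND did not pass in either microRNA pulldown.

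CCN2 stood at 11.59, 11.53 and 11.49 in the NC1 pulldown, at 11.82, 11.93 and 11.89 with NC2, at 12.37, 12.13 and 12.35 with miR-638 and at 11.78, 11.72 and 11.51 with miR-17. The miR-638 arrays were the highest, NC2 came next, and miR-17 overlapped NC1. The difference from both controls was 0.57 (SE 0.08, n = 3 against 6, adjusted p = 3.97e-04), and 0.40 from NC2 alone (adjusted p = 0.0137). The second probe gave 0.84 (SE 0.14, adjusted p = 0.00214 over all probes). CCN1 did not share this. It stood at 13.40 to 13.44 with miR-638 and at 13.26 to 13.50 on the control arrays, a difference of 0.05 (SE 0.06, adjusted p = 0.611). CCN2 was also higher in total RNA after the miR-638 mimic (1.02), and the part of that in the recovered level was not tested.

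KLF2 stood at 9.68, 9.38 and 9.70 with NC1, at 10.19, 9.61 and 9.76 with NC2, at 10.48, 10.45 and 10.53 with miR-638 and at 9.69, 9.79 and 9.96 with miR-17. The miR-638 arrays agreed within 0.04 (SD, n = 3) and lay above the other 9. KLF2 had the largest difference of the 10 genes in this comparison, 0.76 (1.70-fold, SE 0.12, adjusted p = 0.0012). In total RNA its difference after the miR-638 mimic was -0.12 (SE 0.25).

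FOSL1 stood at 10.21, 10.31 and 10.29 with NC1, at 10.51, 10.36 and 10.25 with NC2, at 10.86, 10.70 and 10.84 with miR-638 and at 10.36, 10.23 and 10.35 with miR-17. The 3 other groups overlapped each other, and miR-638 lay above them. The difference from the controls was 0.48 (SE 0.08, adjusted p = 0.0014).

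EGR1, whose promoter carries the SRF words above, stood at 11.93, 11.75 and 11.94 with NC1, at 11.83, 11.76 and 11.82 with NC2, at 12.22, 12.29 and 12.07 with miR-638 and at 11.87, 11.81 and 11.64 with miR-17. It was higher with miR-638 by 0.36 (SE 0.08, adjusted p = 0.0088). Without miR-638 pulldown replicate 1 or 2 the adjusted p was 0.051 and 0.0701.

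DUSP6 stood at 10.02, 9.59 and 10.16 with NC1, at 10.11, 9.97 and 10.15 with NC2, at 10.21, 10.46 and 10.53 with miR-638 and at 9.53, 9.44 and 9.37 with miR-17. Every miR-638 array lay above the control arrays, which overlapped each other, and every miR-17 array lay below them. The difference between miR-638 and the controls was 0.40 (SE 0.12, adjusted p = 0.0398). It was the least stable of the calls: its adjusted p was 0.0548 without the detection filter, 0.0816 in a fit of these groups alone and 0.151 against NC2 alone. Without NC2 pulldown replicate 2, miR-638 pulldown replicate 2 or miR-638 pulldown replicate 3 it was 0.0656, 0.158 and 0.174. The second DUSP6 probe gave 0.35 (SE 0.26, adjusted p = 0.45). In total RNA after the miR-638 mimic DUSP6 differed by 0.47 (limma adjusted p = 0.118, and 0.00748 with the replicate block). The part of that in the recovered level was not tested.

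JUND stood at 12.87, 12.68 and 12.77 with NC1, at 13.66, 13.56 and 13.63 with NC2, at 12.78, 12.77 and 12.75 with miR-638 and at 12.87, 12.87 and 12.75 with miR-17. The NC2 arrays stood apart from the other 9, which overlapped. The difference of miR-638 from both controls was -0.43 (SE 0.06, adjusted p = 6.63e-04). Against NC1 alone it was -0.0047 (adjusted p = 0.976), and with median scaling the adjusted p was 0.0509. Against NC2 alone it was -0.85 (adjusted p = 4.63e-06).

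IER3, JUN, ATF3 and CCN1 did not pass. IER3 stood at 13.24 to 13.51 with miR-638 and at 12.93 to 13.24 on the control arrays, a difference of 0.23 (SE 0.07, adjusted p = 0.0625). It passed with median scaling (0.36, adjusted p = 0.0257), against NC1 alone (adjusted p = 0.0456) and without NC1 pulldown replicate 1 (adjusted p = 0.0376). JUN differed by 0.20 (SE 0.09, adjusted p = 0.189).

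ATF3 differed by -0.09 (SE 0.17, adjusted p = 0.771), and its control arrays numbered 2 stood apart. Its deposited signal was 953 on NC1 replicate 2 and 1104 on NC2 replicate 2, against 440 to 620 on the other 10 pulldown arrays. Without those 2 arrays the difference was 0.14 (adjusted p = 0.338), and the same 5 genes were higher and JUND was lower.

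In the authors' own log2 values 0 of the 10 genes passed limma's test in the miR-638 pulldown, 7 had an unadjusted p under 0.05, and 100 of all genes passed. The differences there had the same direction for all 6 called genes and were larger: 1.02 for KLF2 (adjusted p = 0.0828), 0.79 for FOSL1, 0.73 for CCN2, 0.59 for EGR1, 0.57 for DUSP6 and -0.59 for JUND.

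The miR-17 pulldown was set against the same 6 control arrays, so its differences share them with those of miR-638. DUSP6 was lower by -0.55 (SE 0.12, adjusted p = 0.0056), with the 3 miR-17 arrays below all 6 control arrays. JUND was lower by -0.37 (SE 0.06, adjusted p = 0.0012), but stood 0.05 above NC1 alone (adjusted p = 0.68), and its adjusted p was 0.0735 with median scaling. In all 2 of the 10 genes were lower and 0 higher, where 14.3% of all genes passed and 6.03% were lower. The median of the 10 genes was -0.113 against 9.3e-04 over all genes. The dim second probe of DUSP6 gave -0.63 (SE 0.26, adjusted p = 0.141).

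Of the 8 genes that did not pass with miR-17, CCN1 had an adjusted p of 0.0828, at 13.18, 13.23 and 13.16 against 13.26 to 13.50 on the control arrays, with no overlap. The 3 miR-17 arrays lay below every control array for 2 of the 10 genes, DUSP6 and CCN1, and for 7.4% of all genes. Without NC2 pulldown replicate 1 the CCN1 difference had an adjusted p of 0.0353. CCN2, KLF2, FOSL1, EGR1 and JUN lay within 0.1 of the controls, with differences of -0.041, 0.092, -0.0048, -0.066 and 0.014 and standard errors of 0.08 to 0.12. The differences of IER3 and ATF3 were -0.16 and -0.26. In the authors' values 0 of the 10 passed limma's test and 3 had an unadjusted p under 0.05.

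The microRNA pulldowns were also set against each other, a comparison in which the control arrays enter only through the shared estimate of the spread. Higher with miR-638 were 6 of the 10 genes and lower were 0, where 8.43% of all genes passed and 3.29% were higher. DUSP6 differed most, by 0.96 (1.94-fold, SE 0.13, n = 3 against 3, adjusted p = 3.85e-04). Then came KLF2 (0.67, adjusted p = 0.00684), CCN2 (0.61, adjusted p = 5.35e-04), FOSL1 (0.48, adjusted p = 0.00304), EGR1 (0.42, adjusted p = 0.00721) and IER3 (0.39, adjusted p = 0.0112).

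Arrays of miR-638 lay above every miR-17 array for 8 of the 10 genes, the 6 with CCN1 and ATF3, as for 16.9% of all genes. CCN1 differed by 0.22 (SE 0.07, adjusted p = 0.0692) and passed with median scaling (0.28, adjusted p = 0.039), in a fit of these groups alone (adjusted p = 0.0118) and without the controls numbered 2 (adjusted p = 0.029). IER3 had an adjusted p of 0.0625 without miR-638 pulldown replicate 3 and of 0.0514 without miR-17 pulldown replicate 1. JUN, JUND and ATF3 differed by 0.18, -0.06 and 0.17 and did not pass. In the authors' values 0 of the 10 genes passed limma's test, 3 had an unadjusted p under 0.05, and 132 of all genes passed.

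Between the control pulldowns JUND stood out, higher with NC2 by 0.84 (1.80-fold, SE 0.07, adjusted p = 1.71e-05). CCN2 was higher by 0.34 (SE 0.09, adjusted p = 0.0425). These are 2 of 10 genes, where 4.69% of all genes passed and 3.06% were higher (401 higher and 213 lower, or 451 and 141 with median scaling). The JUND arrays did not overlap, nor did those of the probe that stood for CCN2, as for 11.1% of all genes in that direction. The second probe of CCN2 differed by 0.20 (SE 0.16, adjusted p = 0.554 over all probes), with arrays that overlapped. In the mimic experiment JUND was also higher with NC2, and CCN2 lower, in the fit with the block. The CCN2 call was lost without any of NC1 pulldown replicates 1, 2 and 3 or NC2 pulldown replicates 2 and 3, with adjusted p from 0.0623 to 0.125. It was also lost with replicate number as a block (adjusted p = 0.0563), without the detection filter (0.0649), over all probes (0.0571), in a fit of these groups alone (0.167) and without the controls numbered 2 (0.0719).

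The directions between the control pulldowns follow the column names of the deposited signal table. In the authors' value table those columns are exchanged, where JUND differs by -0.65 and CCN2 by -0.76. Which table has the names right cannot be told from the files. Comparisons with the mean of both controls do not depend on it, but every value against NC1 or NC2 alone does. The other 8 genes differed between the control pulldowns by -0.26 (JUN) to 0.27 (KLF2) and did not pass.

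**Figure D4:**
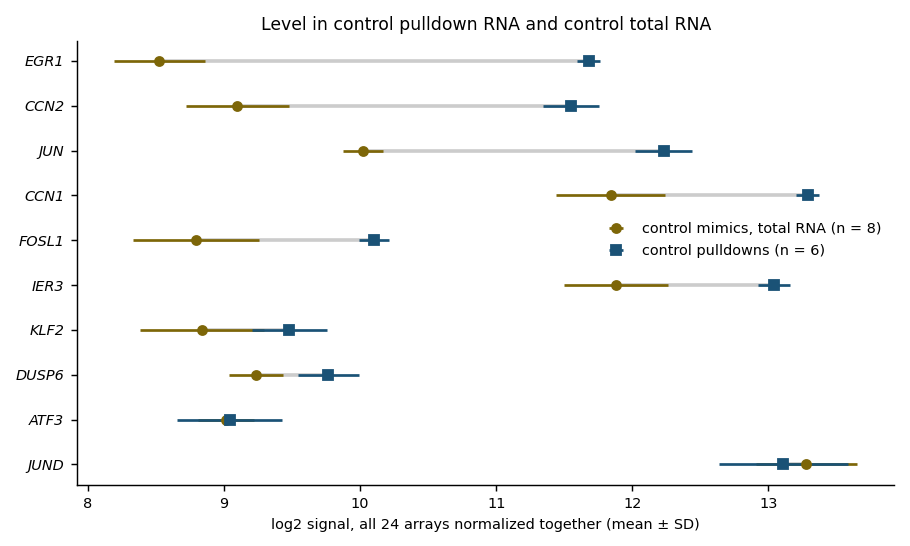
Mean log2 signal (± SD over arrays) of each gene in the 8 control mimic arrays and the 6 control pulldown arrays, with all 24 arrays normalized together and genes ordered by the difference. EGR1, CCN2, JUN, CCN1, FOSL1 and IER3 lie at least 2-fold higher in the pulldowns, and ATF3 and JUND lie at about the same level in both.

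All 24 arrays were also normalized together to describe the genes in control pulldown RNA beside control total RNA, with no test, since the kind of RNA and the experiment cannot be told apart. EGR1 was higher in the pulldown RNA by 3.16 (8.93-fold), CCN2 by 2.45 (5.46-fold) and JUN by 2.21 (4.64-fold). CCN1, FOSL1 and IER3 were higher by 1.45, 1.31 and 1.16. For these 6 genes every control pulldown array lay above every control mimic array, as for 17.9% of all genes. KLF2 and DUSP6 were higher by 0.64 and 0.54, ATF3 by 0.028 and JUND by -0.18, with arrays that overlapped. Thus 6 of 10 genes were at least 2-fold higher and 0 at least 2-fold lower, where 9.59% of 13543 genes were higher and 7.32% lower by that fold. The 4 AP-1 and ATF factors among the 10 ran from 2.21 (JUN) to -0.18 (JUND).

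Other genes of the same pathways were counted from lists of AP-1 and ATF factors, serum and ERK immediate early genes, YAP and TEAD target genes, Hippo pathway components, ERK feedback and output genes, and the CCN and KLF families. After the miR-638 mimic, without the replicate block, 2 of the 20 tested YAP and TEAD target genes rose and 0 fell. Of all genes 2% were called higher. The 2 were CCN2 and the receptor tyrosine kinase AXL (0.55, SE 0.13, adjusted p = 0.0414). AXL stood at 12.67 with miR-638, at 12.55 with NC1 and at 11.7 with NC2, and the controls differed by -0.85 (adjusted p = 0.00402). The median of that list was 0.171 against -0.00474 over all genes. Between the control mimics its median was -0.431 (NC2 minus NC1), with 4 genes lower and 0 higher. Of all 12646 genes 626 were lower and 649 higher there, together 10.1%. The part of NC2 in the comparison with both controls was not tested. Among 38 immediate early genes 3 rose, CCN2 with SRF (0.45, SE 0.09, adjusted p = 0.0153), the factor that binds CArG boxes, and the small MAF factor MAFF (0.54, SE 0.13, adjusted p = 0.0493). MAFF was also the only one of 13 AP-1 and ATF factors to rise, in both fits, and the list's median was -0.126. By limma 0 of 15 Hippo components, 0 of 15 ERK feedback genes and 0 of 11 KLF genes passed (0, 3 and 1 at an unadjusted p under 0.05), at medians of 0.0285, 0.0543 and -0.124. Of 4 CCN genes CCN2 alone passed without the block.

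With replicate number as a block, more genes of these lists passed, as did more of all genes (10.1% higher and 9.1% lower). Of the YAP and TEAD target genes 7 of 20 were higher and 0 lower, and of the immediate early genes 9 of 38 were higher and 5 lower. Between the control mimics the same fit called 12 of those 20 YAP and TEAD target genes lower with NC2 and 1 higher. Of all 12646 genes it called 2053 lower and 2111 higher, together 32.9%. Of the ERK feedback genes 4 of 15 were higher and 0 lower, among them DUSP6 and the receptor EPHA2 (0.50, adjusted p = 5.32e-05 with the block and 0.0622 without). YAP1 itself was the 1 of 15 Hippo components to pass, 0.21 above the mean of both controls (adjusted p = 0.0102 with the block and 0.463 without). Its level with miR-638 (10.92) lay between those with NC1 (10.28) and NC2 (11.13). The control mimics differed more, by 0.85 (adjusted p = 2.37e-09 with the block and 0.00175 without). Of the 11 KLF genes 2 were lower, KLF6 by -0.26 (adjusted p = 0.00229 and 0.11) and KLF13 by -0.18 (adjusted p = 0.0483 and 0.367). Of the 4 CCN genes 3 were higher, CCN2 with CCN1 and CCN5 (0.21, SE 0.68 without the block, adjusted p = 0.0342 and 0.954), and CCN3 did not pass at 0.18. Of the 13 AP-1 and ATF factors 1 was higher and 1 lower. VGLL4 and DUSP5 differed by -0.15 and 0.23 and did not pass in either fit. Of the 6 epithelial markers 3 were higher with the block, among them KRT8 by 0.57 (adjusted p = 1.42e-06 and 0.385) and CDH1 by 0.40 (adjusted p = 9.8e-04 and 0.678), and their part in the other results was not tested.

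In the miR-638 pulldown, 9 of 38 immediate early genes were higher and 0 lower, where 6.55% of all genes were higher and 4.6% lower. The list's median was 0.191 against -0.00641 over all genes. Of its 29 tested genes that are not among the 10, 4 were higher and 0 lower. These 4 included the coactivator CITED2 (0.49, adjusted p = 0.00224), IER5 (0.40, adjusted p = 0.0105) and MAFF (0.49, adjusted p = 0.0292). Of 22 YAP and TEAD target genes, 3 were higher and 2 lower at a median of 0.0211. They included the muscle ankyrin repeat gene ANKRD1 (0.46, adjusted p = 0.0146), the kinase NUAK2 (0.34, adjusted p = 0.0198) and the membrane protein MYOF (-0.29, adjusted p = 0.0208). Of 15 ERK feedback genes 3 were higher, DUSP6 and FOSL1 with the ETS factor ETV4 at 0.75 (adjusted p = 0.00157). EPHA4 was the 1 that was lower, at -0.54 (adjusted p = 0.00619). CCN3 joined CCN2 among 4 CCN genes (0.66, adjusted p = 0.00864), KLF2 was the only one of 11 KLF genes, and 0 of 15 Hippo components passed (2 at an unadjusted p under 0.05). TEAD2 and TEAD4, the DNA-binding partners of YAP, stood at 0.28 (adjusted p = 0.0664) and 0.32 (adjusted p = 0.0812), and KLF13 and KLF5 at -0.19 and 0.20. The keratins KRT8 (0.63) and KRT18 (1.76, SE 0.49) were the 2 of 6 epithelial markers that were higher (adjusted p = 0.00255 and 0.0339). KRT18 was dim, at a mean of 5.66 with the controls and 7.42 with miR-638. In total RNA after the miR-638 mimic CITED2, MAFF, ANKRD1, ETV4 and KRT8 differed by 0.33, 0.54, 0.42, 0.45 and 0.57. MAFF passed there in both fits, and the others with the block only. IER5, NUAK2, CCN3 and KRT18 differed by 0.18, 0.18, 0.18 and -0.15 and did not pass. The part of these differences in the recovered levels was not tested.

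In the miR-17 pulldown 4 of 15 ERK feedback genes, DUSP6 among them, were lower and 0 higher, and 11 did not pass, where 6.03% of all genes were lower. The list's median was -0.139 against 9.3e-04 over all genes. Beside DUSP6 they were the ETS factor ETV5 (-0.63, adjusted p = 3.86e-04), PHLDA1 (-0.50, adjusted p = 0.0011) and SPRY4, an inhibitor of receptor tyrosine kinase signalling (-0.56, adjusted p = 0.00659). Immediate early genes went both ways, 4 higher and 4 lower of 38 at a median of -0.0746, where 8.27% of all genes were higher. The higher ones included CITED2 (0.86, adjusted p = 1.39e-05), the pseudokinase TRIB1 (0.58, adjusted p = 1.21e-04) and KLF4 (0.42, adjusted p = 0.015). MAFF was lower with miR-17 (-0.47, adjusted p = 0.0282), where it was higher with miR-638, and JUND was the other lower one of 13 AP-1 and ATF factors. JUND stood at 12.83 with miR-17, at 12.77 with NC1 and at 13.62 with NC2, and so was not lower than NC1.

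Of 22 YAP and TEAD target genes 2 were higher and 2 lower with miR-17, among them FJX1 (0.45, adjusted p = 9.28e-04), IGFBP3 (-0.35, adjusted p = 0.0106) and ASAP1 (-0.27, adjusted p = 0.0173). IGFBP3 stood at 9.35 with miR-17, near NC1 (9.46) and below NC2 (9.93), and these controls differed by 0.48 (adjusted p = 0.00829). Of 15 Hippo components the adaptor MOB1A (0.71, adjusted p = 0.00226) and the TEAD factor TEAD3 (0.66, adjusted p = 0.0094) were higher and the kinase STK4 lower (-0.23, adjusted p = 0.0325). STK4 stood at 11.76 with miR-17, near NC2 (11.8) and below NC1 (12.19), and these controls differed by -0.39 (adjusted p = 0.00941). CCN5 was higher (0.42, adjusted p = 0.0288), KLF6 was lower (-0.26, adjusted p = 0.0325), and KRT8 was the only epithelial marker to pass (0.53, adjusted p = 0.00542). Of the fibroblast, blood and endothelial markers tested, 0 passed limma's test in any of the 3 comparisons of a microRNA with both controls without the replicate block (COL1A2 with miR-17 had an unadjusted p of 0.0394). With the block the blood marker CD14 passed after the miR-638 mimic (0.23, adjusted p = 0.046, and 0.898 without the block).

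The genes whose levels followed CCN1 and CCN2 most closely were ranked by Pearson's r over the arrays of each experiment, as a description. The arrays share their groups, their normalization and, in the mimics, the pairs of replicates. Over the 12 mimic arrays CCN1 was followed by TRIM8 (r = 0.982), STMN3 (0.979) and SLCO2A1 (0.977), and CCN2 by ZNF488 (0.961), CRY1 (0.959) and PACSIN1 (0.953). Over the 12 pulldown arrays CCN1 was followed by USP46 (0.942), MLLT11 (0.921) and KMT2A (0.901), and CCN2 by PSMD11 (0.933), PRPSAP1 (0.933) and SPA17 (0.931). No gene was among the 3 nearest of either in both experiments.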

How the data were processed

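The 10 genes and the pathway lists were chosen with earlier results of these data known. The deposited signal table gives each probe a linear, background-subtracted intensity without normalization across arrays. A detection p-value is deposited beside each intensity. The authors' value table is deposited on a log2 scale with a floor of 4, by a method not given in the sources used here. The columns of the NC1 and NC2 pulldowns are exchanged between these tables, and control values here follow the names in the signal table.

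For each experiment apart, limma's neqc took the background from the detection p-value, added an offset of 16, applied quantile normalization and took log2 (R 4.3.3, limma 3.58.1). A probe was kept when its detection p-value was below 0.05 on 4 or more mimic arrays or on 3 or more pulldown arrays. Each gene was represented by its kept probe of highest mean (12646 and 13101 genes). Group means were fitted with lmFit and tested with eBayes with a trend, two-sided, with Benjamini-Hochberg adjustment over all genes and a threshold of 0.05, in 6 comparisons and the difference of the miR-638 mimic effect between pairs of replicates. The script was tested on simulated data. Mimic deviations from the group means correlated at 0.68 to 0.768 between arrays of the same number, and at 0.68 to 0.74 between arrays of other numbers within replicates 1 and 2 or within 3 and 4. Across those pairs the values were -0.752 to -0.673. The numbers were therefore used as a block, although the deviations show the pairs and not the single numbers. Same-numbered pulldown values ran from -0.326 to 0.555. Between NC1 and NC2 they were 0.122 to 0.555, and between NC2 and miR-638 they were -0.326 to -0.103. Pulldown arrays of other numbers ran from -0.515 to 0.4. The block is given there too, although these values do not settle whether the numbers pair the pulldown arrays. The number of arrays limits the precision.

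Named were all 10 genes with every probe. From each pathway list, up to 3 other genes of smallest p among those past the test in each comparison of a microRNA with both controls were named, or up to 2 as values where none passed. The 3 genes of highest correlation with CCN1 and CCN2 were named too. Figures were drawn with matplotlib 3.10.9 and pandas 2.3.3 (Python 3.11.15).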

Additional observations from a re-analysis of the deposited data

Results flagged for a closer look

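The effect of the miR-638 mimic on DUSP6 differed between replicates 3 and 4 and replicates 1 and 2 by -0.89 (log2, 0.027 against 0.92, limma interaction over 12646 genes, adjusted p = 1.18e-04, n = 2 miR-638 and 4 control arrays in each pair). For CCN1 the same difference was -0.44 (0.038 against 0.47, adjusted p = 0.0288). Both were singled out because the test of the difference between the pairs passed its threshold. In both genes the miR-638 arrays of replicates 1 and 2 lay above every control array of those numbers, and those of replicates 3 and 4 lay among theirs. The other 8 genes did not pass that test. The pairs also differ in the level of CCN1 itself, which was 0.61 higher in replicates 3 and 4, and the part of this in the difference was not tested. Over the 30 sets of arrays (each gene in each mimic group) 0 held an array far from the rest by Dixon's test. With 4 arrays a set, which in most of these genes split between the pairs, that test could hardly find such an array. Nothing is drawn from it, and the pulldown groups were not screened.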

How the results depend on the processing

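Of the 212 counts and 1090 single-gene values recomputed under the alternatives, 60 counts moved by over 1.5 times, and 71 single values changed sign, 45 lost and 29 gained a call. The cause of these changes was not tested. CCN2 after the miR-638 mimic kept its call in every alternative except against NC1 alone, where 0 of the 10 genes passed (2 at an unadjusted p under 0.05 by limma). With replicate number as a block (2432 genes), within replicates 1 and 2 (2259) and within 3 and 4 (845), 3 of the 10 passed, where 422 genes and 1 of the 10 passed without the block, and 871 genes passed against NC2 alone. Leaving out 1 array gave 160 to 350 genes. Between the control mimics the block gave 4164 genes and 4 of the 10, replicates 1 and 2 gave 3575 and 7, replicates 3 and 4 gave 2136 and 3, and leaving out 1 array gave 796 to 1113 genes and 0 to 1 of the 10. In the pulldowns the block changed 1 call among the 10 genes, that of CCN2 between the controls (adjusted p = 0.0563).

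In the authors' values 100, 203, 132 and 4 genes passed in the miR-638, miR-17, miR-638 against miR-17 and control pulldown comparisons, with 0 of the 10 in each (7, 3, 3 and 2 at an unadjusted p under 0.05). In fits of only the groups compared, 839 genes passed in the miR-638 pulldown, 2635 between the microRNAs and 101 between the controls. Without the controls numbered 2, an alternative chosen after seeing the data, 2265 genes passed between the microRNAs. Leaving out 1 array gave 542 to 1882 genes for miR-638, 982 to 2157 for miR-17, 626 to 698 between the microRNAs and 314 to 907, with 1 to 2 of the 10, between the controls. For miR-17, 1 of the 10 genes passed with median scaling and 1 against NC1 alone. Between the controls 1 passed without the detection filter, with all probes, with the block, in the fit of those groups alone and without the controls numbered 2. The miR-638 mimic effect differed between the pairs in 14 genes in the authors' values and in 33 without the detection filter.

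Signs changed mostly where the difference had not passed. After the miR-638 mimic, FOSL1 was 0.031, EGR1 -0.067 and JUN 0.019 within replicates 1 and 2, and against NC1 alone EGR1 was -0.082, JUND 0.14, ATF3 0.017 and IER3 0.14. Leaving out 1 array gave KLF2 -0.24 to 0.011, EGR1 -0.12 to 0.15 and IER3 -0.15 to 0.096. Between the control mimics within replicates 3 and 4, CCN1 was 0.076, KLF2 0.11, DUSP6 0.031 and JUN 0.14, JUN was 0.036 in the authors' values, and leaving out 1 array gave CCN1 -0.33 to 0.017, KLF2 -0.37 to 0.017 and FOSL1 -0.35 to 0.053. In the miR-638 pulldown CCN1 was -0.23 in the authors' values, and ATF3 was 0.012 against NC2 alone, 0.14 without the controls numbered 2 and -0.17 to 0.023 without 1 array.

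In the miR-17 pulldown CCN2 was 0.018 and FOSL1 0.033 with median scaling. In the authors' values CCN2 was 0.32, KLF2 -0.053, FOSL1 0.11 and EGR1 0.19. Against NC1 alone CCN2 was 0.13, FOSL1 0.047, JUN -0.12 and JUND, which had passed, 0.054. KLF2 was -0.042 against NC2 alone, and the second probe of CCN2 gave 0.0029. Without the controls numbered 2 KLF2 was -0.020, FOSL1 0.0016 and JUN -0.055. Leaving out 1 array gave CCN2 -0.097 to 0.039, FOSL1 -0.036 to 0.037, EGR1 -0.12 to 0.0022 and JUN -0.052 to 0.073. Between the control pulldowns all 10 genes changed sign in the authors' values, whose columns are exchanged: CCN1 -0.12, CCN2 -0.76, KLF2 -0.30, FOSL1 -0.28, DUSP6 -0.22, EGR1 0.18, JUN 0.26, JUND -0.65, ATF3 0.37 and IER3 -0.023. Leaving out 1 array there gave DUSP6 -0.015 to 0.27 and ATF3 -0.44 to 0.019. The difference between the pairs for EGR1 was -0.035 in the authors' values.

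Probes of DUSP6 and ATF3 that were not detected limit those genes to 1 probe in the mimic experiment. The joint normalization of all 24 arrays was also chosen after seeing the data.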
